A study of Mus musculus with 11 samples.

Results

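The 54 genes described here encode the machinery of mitosis, from the kinases that start it to the spindle, the kinetochore, the spindle checkpoint and the condensed chromosome. They were chosen as a list of mouse symbols, and all 54 were found by Ensembl identifier among the 48795 genes of the deposited table. RNA was sequenced from B cells sorted from the spleens of female mice, 8 to 12 weeks old, on day 10 after intravenous immunization with sheep red blood cells (SRBC), which induces germinal centers (GCs). Light zone (LZ) GC B cells (B220+ CD138neg IgDneg CD38neg Fas+ CD86high CXCR4low) came from 4 Myc WT mice, here mice 1 to 4, and from 4 Myc V394D mice, here mice 5 to 8. Memory B cells (MBCs; B220+ CD138neg IgDneg CD38+ CD273+) came from Myc WT mice 1, 3 and 4, so that MBCs and LZ B cells of these 3 mice share an animal. In Myc V394D mice the endogenous Myc gene carries the V394D exchange, which stops the MYC protein from binding MIZ1 and spares its partner MAX. The zygosity and any Cre are not given in the sources used here. By their labels, Myc WT mice 1 to 3, Myc WT mouse 4 and the 4 Myc V394D mice bear titles with different prefixes, so that genotype and whatever the prefix stands for cannot be told apart.

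To divide, a cell activates CDK1, condenses its chromosomes, builds a bipolar spindle and attaches each kinetochore to microtubules, while checkpoint proteins hold back the anaphase-promoting complex until every kinetochore is attached. The genes of this machinery are silent in resting cells and are transcribed late in the cell cycle, largely under the DREAM complex, B-MYB and FOXM1, and their RNA is therefore a common readout of dividing cells. GC B cells are among the fastest dividing cells of the body and divide mainly in the dark zone. LZ B cells are the pool from which some are selected to reenter the cycle. MBCs form by paths with or without the GC, and rest.

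Promoters of these genes typically hold a cell cycle genes homology region (CHR), the contact of DREAM and of B-MYB with its partners, and CCAAT boxes, the sites of NF-Y. RefSeq windows of 300 bases (GRCm38.p6), from 250 bases before to 50 bases after the transcription start, were found for 45 of the 54 genes, as 48 windows. A CHR-type motif (TTTGAA or TTCGAA, on either strand) was in 40 of the 48 windows (83.3%), against 19.2% of all 32851 windows of the same table. CCAAT, on either strand, was in 36 windows (75%), against 37.4% of all windows. Both kinds were in 72.9% of the members' windows and in 7.52% of all windows, and CCAAT occurred at least 2 times in 45.8% and 11.7%, respectively. The median position of the CHR-type motifs was 15 bases before the start in the members and 125 bases before it in all windows. The windows without either motif were those of Nuf2, Nusap1, Ncaph, Plk4, Mad2l1, Pttg1 and Birc5. These are matches of letters, not sites shown to be bound. The windows of Cdk1, Plk1, Mki67 and Top2a are printed because these are widely used proliferation genes, and that of Pttg1 because it was the member with a higher mean in MBCs. Capitals mark CHR-type motifs and CCAAT boxes in either orientation, and each window is read 5′ to 3′ on the strand of the gene.
Cdk1 promoter, chr10:69352863-69353162, minus strand: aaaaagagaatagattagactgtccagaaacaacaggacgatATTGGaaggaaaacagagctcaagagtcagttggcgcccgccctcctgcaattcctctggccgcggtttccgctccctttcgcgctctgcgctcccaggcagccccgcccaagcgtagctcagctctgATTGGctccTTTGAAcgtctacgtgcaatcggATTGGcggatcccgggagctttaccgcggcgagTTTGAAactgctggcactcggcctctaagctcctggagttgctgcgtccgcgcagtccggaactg
Plk1 promoter, chr7:122159185-122159484, plus strand: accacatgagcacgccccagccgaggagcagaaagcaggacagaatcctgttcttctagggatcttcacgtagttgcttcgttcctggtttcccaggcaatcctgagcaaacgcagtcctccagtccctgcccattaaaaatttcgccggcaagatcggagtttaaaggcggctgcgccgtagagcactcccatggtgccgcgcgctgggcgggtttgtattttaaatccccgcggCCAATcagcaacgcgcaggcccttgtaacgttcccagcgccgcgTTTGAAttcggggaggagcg
Mki67 promoter, chr7:135716330-135716629, minus strand: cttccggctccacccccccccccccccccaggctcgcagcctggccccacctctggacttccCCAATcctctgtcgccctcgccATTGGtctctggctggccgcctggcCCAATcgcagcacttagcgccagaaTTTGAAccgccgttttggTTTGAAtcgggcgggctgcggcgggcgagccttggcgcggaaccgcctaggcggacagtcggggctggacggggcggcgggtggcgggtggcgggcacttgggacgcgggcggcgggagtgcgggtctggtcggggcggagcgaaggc
Top2a promoter, chr11:99024140-99024439, minus strand: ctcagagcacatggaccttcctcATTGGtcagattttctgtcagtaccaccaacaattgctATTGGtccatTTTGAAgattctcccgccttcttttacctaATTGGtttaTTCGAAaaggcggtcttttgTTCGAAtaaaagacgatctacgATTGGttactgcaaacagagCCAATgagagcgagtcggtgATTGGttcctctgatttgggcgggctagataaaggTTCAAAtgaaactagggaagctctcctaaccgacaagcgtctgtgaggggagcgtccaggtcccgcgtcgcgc
Pttg1 promoter, chr11:43425932-43426231, minus strand: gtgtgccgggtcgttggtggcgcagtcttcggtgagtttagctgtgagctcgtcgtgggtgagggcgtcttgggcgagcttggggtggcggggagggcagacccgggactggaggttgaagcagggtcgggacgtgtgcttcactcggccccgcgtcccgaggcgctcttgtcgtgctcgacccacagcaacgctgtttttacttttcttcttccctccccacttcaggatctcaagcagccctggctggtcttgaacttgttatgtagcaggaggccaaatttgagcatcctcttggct
The Top2a window holds 4 CHR-type motifs and 6 CCAAT boxes, those of Cdk1 and Mki67 2 and 3 each, that of Plk1 1 and 1, and that of Pttg1 0 and 0. The RefSeq start used for Pttg1 lies 270 bases inside the gene as GENCODE annotates it, so its window does not cover the start that GENCODE gives, and that of Mad2l1 lies 169 bases before the gene. The starts of Kif2c, Cdca8, Cdca3, Cenpm and Kif4 lie further inside, by 3867, 2394, 629, 412 and 328 bases. So does the start of a Bub3 window, by 272 bases. In all, 36 of the 48 windows start within 50 bases of GENCODE.

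**Figure D1:**
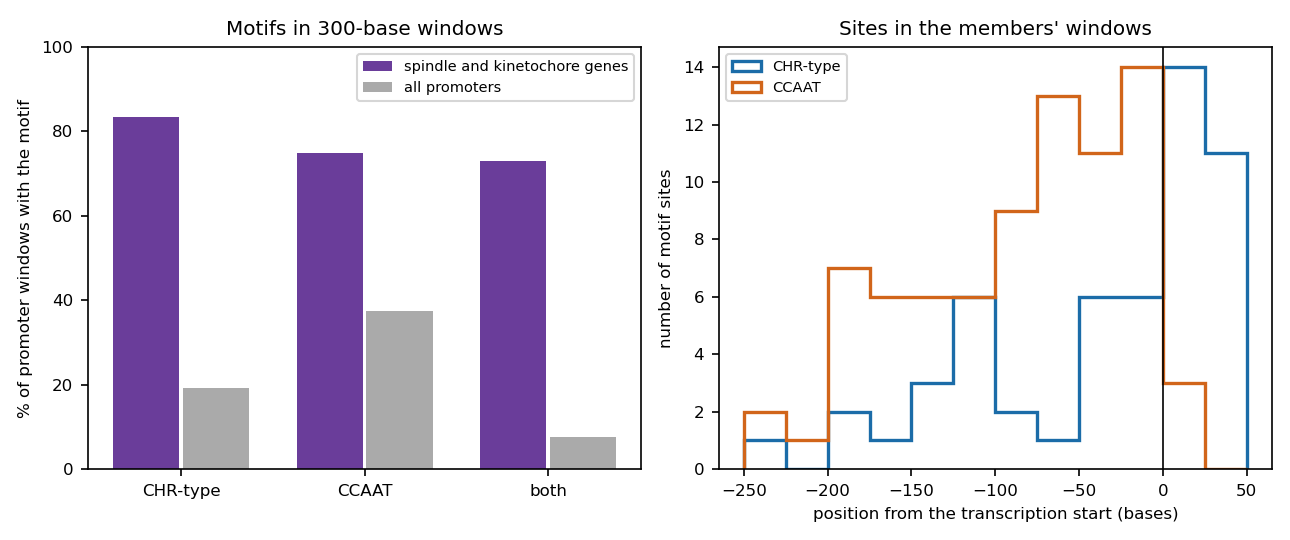
Left, percentage of 300-base promoter windows that hold a CHR-type motif, a CCAAT box or both, for the 48 windows of the spindle and kinetochore genes (purple) and all 32851 windows (grey); 83.3% of the members' windows hold a CHR-type motif against 19.2% of all. Right, number of motif sites in the members' windows by distance in bases from the transcription start, in bins along the window; the CCAAT boxes lie mostly before the start and the CHR-type motifs around it.

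Levels are TPM, which correct reads for the length of the transcript and sum to the same total in each library, so that genes can be compared with each other, whereas the depth behind a value is unknown. Ribosomal RNA took 35.7 to 44.5% of TPM in Myc WT LZ, 44.1 to 61.3% in Myc V394D LZ and 36.1 to 37.5% in MBCs. The median was 41.0% in Myc WT LZ and 50.9% in Myc V394D LZ, so that other transcripts mostly share a smaller total in Myc V394D. Myc V394D mouse 5 was an exception, at 44.1% against 44.5% in Myc WT mouse 4. Genes that averaged 10 TPM or more over the LZ libraries were listed at 0 in some: 34 to 69 of them in an LZ library, and 253, 421 and 57 in the MBC libraries of mice 1, 3 and 4. A member listed at 0 in MBCs of mouse 1 or 3 can therefore be a failed estimate. Genes of GC B cells summed to 458 to 628 TPM in Myc WT LZ, 341 to 588 in Myc V394D LZ and 89.2 to 133 in MBCs, and genes of MBCs to 52.3 to 63.2, 21.6 to 58.1 and 696 to 1008. A list of 5 light zone genes summed to 429 to 625 TPM in Myc WT LZ, 340.1 to 457 TPM in Myc V394D LZ and 353 to 506 TPM in MBCs. The ranges of this list overlapped between the LZ libraries and MBCs.

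In LZ B cells most of the mitotic genes were highly expressed, while Espl1, Kif2c and Cdc25c had the lowest percentiles, down to 67.0, 68.6 and 68.7 in single libraries. The median member stood at percentile 93.3, 90.8, 93.4 and 89.7 of the 21695 protein-coding genes in Myc WT mice 1 to 4, and at percentile 93.5, 90.9, 91.5 and 92.1 in Myc V394D mice 5 to 8. In MBCs of mice 1, 3 and 4 it stood at percentile 68.9, 73.5 and 77.2, below every LZ library. The top 10% of protein-coding genes held 26 to 39 members in a Myc WT LZ library, 31 to 34 in a Myc V394D LZ library and 5 to 8 in an MBC library. As a share of the TPM of protein-coding genes, the members summed to 0.934, 0.700, 0.890 and 0.557% in Myc WT LZ, 0.944, 0.827, 0.746 and 0.795% in Myc V394D LZ, and 0.194, 0.196 and 0.251% in MBCs. The shares of both LZ groups overlapped (0.770 ± 0.175% and 0.828 ± 0.0844%, SD, n = 4 each), and the MBCs lay below all of them (0.214 ± 0.0324%, SD, n = 3), 3.61-fold under Myc WT LZ. In bulk RNA, fewer dividing cells and less RNA of these genes per cell cannot be told apart.

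**Figure D2:**
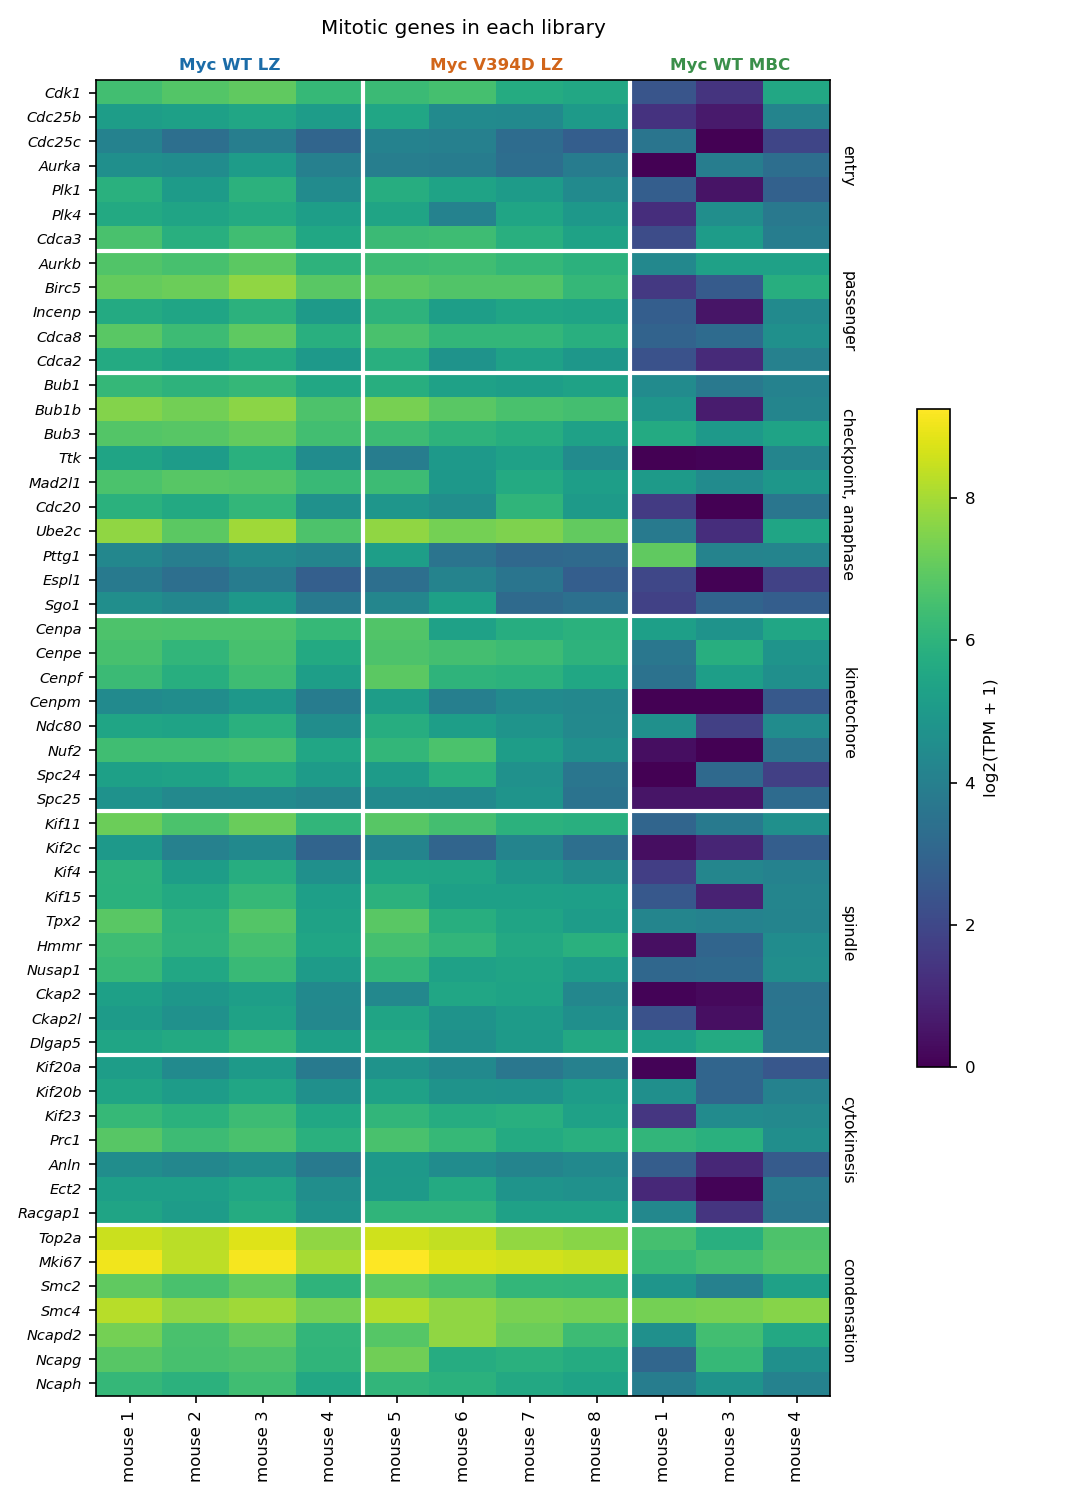
Expression of the 54 genes as log2(TPM + 1) (color) in each of the 11 libraries (columns), ordered by role (rows, groups parted by white lines). Most rows are bright in all 8 LZ libraries and darker in the MBC libraries, Smc4 (160.7 to 191 TPM in MBCs) being an exception, and the 8 values listed at 0 are in MBCs of mice 1 and 3.

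Within each LZ group most of the mitotic genes shared an order of the mice in TPM, which the other genes of these libraries showed in part. Myc WT mouse 4 had the lowest value of its group for 53 of the 54 genes (44.2% of all genes tested), the exception being Pttg1. Mouse 3 had the highest value for 38 (35.2% of all genes). In Myc V394D, mouse 5 was highest for 40 genes (39.2% of all genes) and mouse 8 lowest for 34 (30.0% of all genes). The order was another one in the shares of protein-coding TPM given above. There mouse 1 was the highest of Myc WT and mouse 7 the lowest of Myc V394D. The summed TPM of the members was 4843, 3756, 5215 and 2711 in Myc WT LZ and 4691, 3669, 3114 and 2627 in Myc V394D LZ, so that the spread within a genotype covered the difference between the genotypes. Among MBCs no single library was lowest throughout. Mice 1 and 3 were each lowest for 26 genes (29.4 and 45.7% of all genes) and mouse 4 for 2 (15.2%). Mouse 4 was highest for 27 genes (39.8% of all genes), mouse 3 for 14 (25%) and mouse 1 for 13 (33.3%).

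Comparing MBCs with LZ B cells of Myc WT mice asks how far the program of division is down in MBCs. Whether these MBCs came from the GC was not tested. Most of the mitotic genes were lower in MBCs: 53 of 54 had a lower mean log2 level (98.1%, against 55.3% of all genes) and Pttg1 a higher one. The median log2 difference of the 54 genes was -2.19, against -0.14 for all 13245 genes tested and -0.13 for the protein-coding genes among them. Of the 54, 35 fell at an adjusted p under 0.05 (64.8%, against 5.04% of all genes tested lower by this rule) and 0 rose (4.17% of all genes), by limma on log2(TPM + 1). That scale makes changes of genes with low values look smaller. At an unadjusted p under 0.05, 49 were lower (15.8% of all genes) and 0 were higher (11.3% of all genes). For 44 of the 54 genes each MBC library lay below each Myc WT LZ library (14.4% of all genes), and for 0 genes above (11.8% of all genes). The 10 genes whose ranges overlapped were Ncapg, Cdc25c, Ndc80, Cenpf, Cenpe, Ncapd2, Prc1, Dlgap5, Smc4 and Pttg1.

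The values within each mouse were as follows. Within mouse 1, 53 members were lower in MBCs, with a median log2 difference of -3.02, within mouse 3 all 54, with -3.07, and within mouse 4, 53, with -1.04. The genes that were not lower were Pttg1 in mouse 1 and Smc4 in mouse 4. Over all genes tested the median log2 difference was -0.02, -0.64 and 0.23 in mice 1, 3 and 4, and 50.5, 63.2 and 38.2% of all genes were lower, so that the values of the members include a shift of the whole library in mice 3 and 4. Summed over the members, LZ B cells had 4.73, 4.89 and 1.97 times the TPM of MBCs in mice 1, 3 and 4. MBCs of mice 1 and 3, the libraries with many genes listed at 0, had 10 and 16 members under 1 TPM, and MBCs of mouse 4 had 0. With the mouse as a block, which leaves the 3 mice with both libraries, 9 members passed the adjusted threshold, all of them among the 35 (Birc5, Cdca8, Bub1b, Ube2c, Nuf2, Spc24, Kif11, Top2a and Mki67), and the other 26 had an adjusted p between 0.0674 and 0.227. In that fit 0.897% of all genes tested were lower past the threshold. With the MBC library of mouse 4 alone, chosen after seeing the data, all 54 genes were lower than in Myc WT LZ, 17 of them at an adjusted p under 0.05 (4.13% of all genes), and the median difference was -1.58. Leaving out 1 LZ library gave 7 (without mouse 1), 6 (mouse 2), 6 (mouse 3) or 18 genes (mouse 4) past the threshold, where 1.31, 1.04, 1.03 and 2% of all genes were lower. Leaving out the MBC library of mouse 1 gave 25 genes (4.43% of all genes), of mouse 3 38 (5.9%) and of mouse 4 38 (14%). The p-values measure the spread between these mice only.

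Markers of other cells also differed between the groups. A list of 6 erythroid genes summed to 7.60, 6713 and 53.4 TPM in MBCs of mice 1, 3 and 4, against 115 to 225 TPM in Myc WT LZ and 71.6 to 396 TPM in Myc V394D LZ, with Klf1 listed at 0 in all MBCs. A list of 7 myeloid genes summed to 43.0 to 229.8 TPM in MBCs, 4.26 to 12.3 TPM in Myc WT LZ and 0 to 21.97 TPM in Myc V394D LZ, with S100a8 and S100a9 listed at 0 in all Myc V394D LZ libraries and all MBCs. A list of 7 T cell genes summed to 34.2 to 68.5 TPM in Myc WT LZ, 26.8 to 45.0 TPM in Myc V394D LZ and 0 to 31.7 TPM in MBCs, with Cd3g listed at 0 in all Myc V394D LZ libraries. The dark zone genes Cxcr4, Foxo1, Gcsam and Polh summed to 186 to 324 TPM in Myc WT LZ, 134 to 316 TPM in Myc V394D LZ and 99.4 to 177 TPM in MBCs. A list of 3 genes of naive follicular B cells summed to 363 to 367 TPM in Myc WT LZ, 289 to 401 TPM in Myc V394D LZ and 788 to 834 TPM in MBCs. A list of 6 plasma cell genes, with Tnfrsf17 listed at 0 in all libraries, was also summed. The sums were 229 to 381 TPM in Myc WT LZ, 134 to 221 in Myc V394D LZ and 193 to 402 in MBCs. They did not overlap between the genotypes in TPM, where 9.16% of all genes tested were lower in Myc V394D without overlap. On the scale of protein-coding genes this list was not compared. The part of these cells in the levels of the mitotic genes was not tested.

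**Figure D3:**
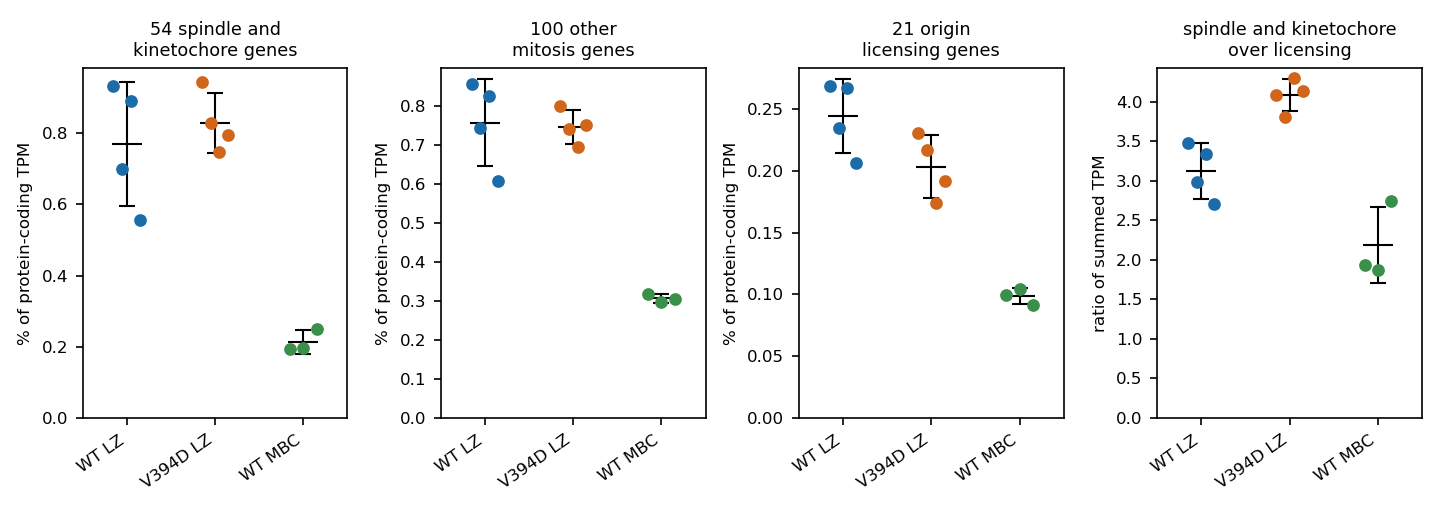
Summed TPM of the 54 spindle and kinetochore genes, of 100 other mitosis genes and of 21 origin licensing genes as a percentage of the TPM of protein-coding genes, and the ratio of the first to the third, for each library (points) with mean and SD (bars). MBCs lie lowest in all of the first 3 panels (0.194 to 0.251% for the 54 genes), and in the last panel the 4 Myc V394D libraries (3.81 to 4.29) lie above the 4 Myc WT LZ libraries (2.70 to 3.47).

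Comparing LZ B cells of the genotypes asks whether losing the contact of MYC and MIZ1 alters the program of division, and it shares the 4 Myc WT LZ libraries with the comparison above. In TPM, 45 of the 54 genes (83.3%, against 73.7% of all genes) had a lower and 9 a higher mean log2 level in Myc V394D, while the median log2 difference was -0.30 for the members and -0.31 for all 12869 genes tested, and 27 members lay on each side of the latter. No member passed an adjusted p of 0.05 in limma (0 higher, against 0.00777% of all genes, and 0 lower, against 0.0389%). At an unadjusted p under 0.05, 5 (Mad2l1, Bub3, Aurka, Birc5 and Bub1) were lower (9.26%, against 15.7% of all genes) and 0 higher (1.24% of all genes). The genotypes did not overlap for 2 genes that were lower, Bub3 and Aurka (9.16% of all genes), and for 0 that were higher (0.816% of all genes). Without Myc V394D mouse 5, 2 members, Mad2l1 and Bub3, were lower past the adjusted threshold (against 1.88% of all genes in that fit).

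The direction for the list depended on the scale. With TPM rescaled by median ratios, 30 members were higher and 24 lower. Their median log2 difference was 0.04, against -0.006 for all genes tested. When only protein-coding genes were kept and rescaled to the same total, 32 members were higher and 22 lower. Their median was then 0.08, against 0.02 for all genes tested. On that scale 0 members passed the adjusted threshold (higher, 0.0188% of the 10656 genes tested; lower, 0.0375%), 6 were higher at an unadjusted p under 0.05 (6.51% of all genes), namely Racgap1, Ncapd2, Anln, Cenpf, Cenpe and Mki67, and 2, Mad2l1 and Bub3, lower (5.72% of all genes). Racgap1 and Cenpe then lay higher without overlap (4.46% of all genes) and Bub3 lower (3.24% of all genes). The median of the members relative to all genes tested was 0.01 in TPM and lay between -0.19 and 0.12 over the alternatives tried.

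**Figure D4:**
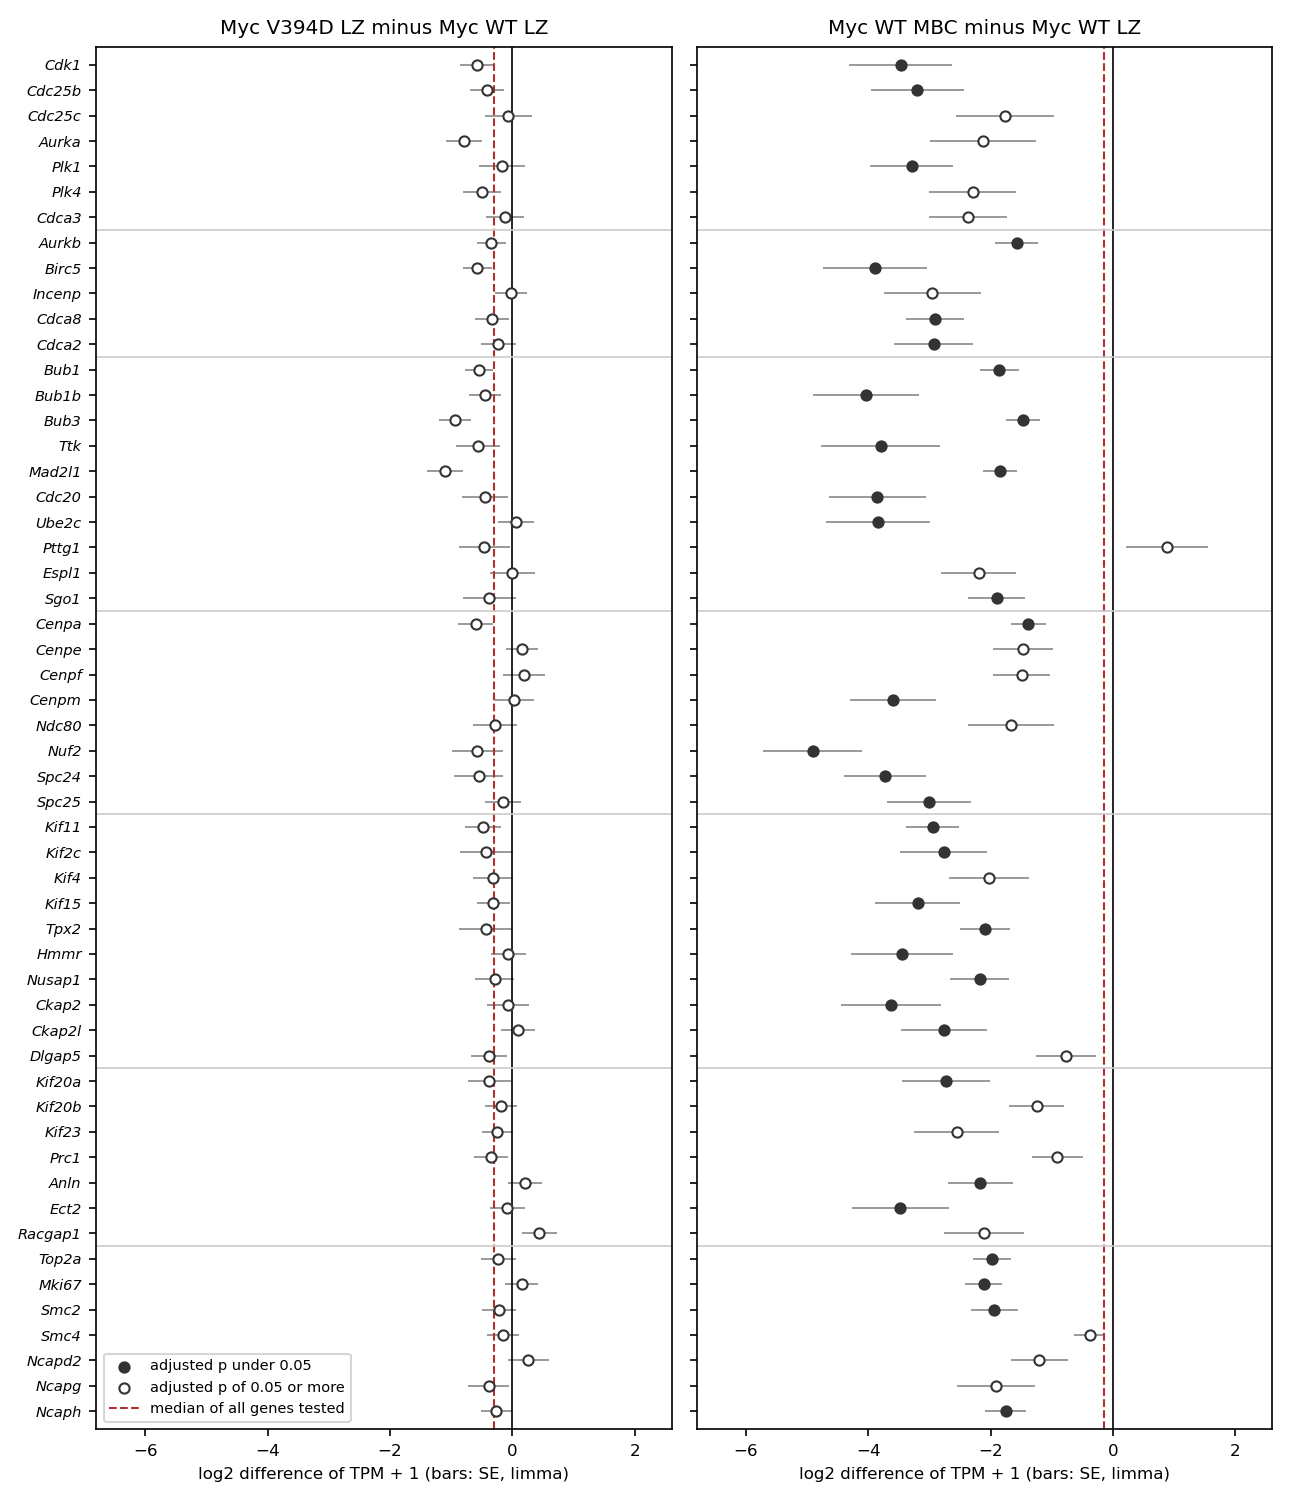
Log2 difference of TPM + 1 for each of the 54 genes, ordered by role, for Myc V394D minus Myc WT LZ (left) and MBC minus Myc WT LZ (right), with the SE from limma as bars, filled points for an adjusted p under 0.05 and the median of all genes tested as a dashed line. On the left the points scatter around the dashed line from -1.11 to 0.44 with no filled point, and on the right 53 points lie left of it, 35 of them filled, and Pttg1 lies right of it.

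The regulators of mitotic entry were all lower in MBCs, and 3 of the 7 passed the test. Cdk1 encodes the kinase that starts mitosis, and it was at 87.5, 108, 128 and 71.8 TPM in Myc WT LZ, 78.4, 91.4, 51.03 and 45.8 TPM in Myc V394D LZ and 4.49, 1.65 and 45.6 TPM in MBCs. It was at a few TPM in MBCs of mice 1 and 3 and just under the lowest LZ library in mouse 4, and it fell in MBCs (log2 difference -3.47, SE 0.84, adjusted p = 0.0358 from limma). Plk1, the Polo-like kinase of spindle assembly and cytokinesis, was at 57.9, 32.5, 60.1 and 20.9 TPM in Myc WT LZ, 53.7, 40.2, 32.9 and 20.4 TPM in Myc V394D LZ and 5.79, 0.39 and 6.37 TPM in MBCs. All 3 MBC libraries lay under all LZ libraries (log2 difference -3.29, SE 0.67, adjusted p = 0.0211), a 10.2-fold lower mean. Cdc25b, a phosphatase that activates CDK1, also fell (-3.19, adjusted p = 0.0336). Aurka, the Aurora kinase of the spindle poles, was at 23.1, 21.5, 33.4 and 15.4 TPM in Myc WT LZ and 14.5, 13.9, 9.11 and 13.7 TPM in Myc V394D LZ, so that every Myc V394D mouse lay under every Myc WT mouse. The log2 difference was -0.79 (SE 0.29, adjusted p = 0.22; two-sided exact permutation p = 0.0286, the least possible with 4 mice a group), or -0.48 relative to all genes. On the scale of protein-coding genes the genotypes overlapped for Aurka (log2 difference -0.44, adjusted p = 0.576). In MBCs Aurka was listed at 0, 14.3 and 9.18 TPM (adjusted p = 0.154). Plk4, Cdca3 and Cdc25c had log2 differences of -2.29, -2.37 and -1.76 in MBCs and did not pass the test.

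The chromosomal passenger complex, which corrects faulty attachments and directs cytokinesis, was lower in MBCs in all of its members, with 4 of 5 genes of this group past the test. Birc5 encodes its subunit survivin, at 134, 143, 209 and 118 TPM in Myc WT LZ, 119, 107, 106 and 70.6 TPM in Myc V394D LZ and 1.91, 5.30 and 54.2 TPM in MBCs. MBCs of mice 1 and 3 were at a few TPM and those of mouse 4 below the lowest LZ library (log2 difference -3.89, SE 0.85, adjusted p = 0.0261). In Myc V394D the mean of Birc5 was 101 ± 20.9 TPM against 151 ± 40.1 TPM in Myc WT (SD, n = 4 each). The log2 difference was -0.58 (adjusted p = 0.256 from limma), or -0.27 relative to all genes. On the scale of protein-coding genes it was -0.19 (adjusted p = 0.668). Cdca8, which encodes borealin, and Cdca2, which brings a phosphatase to chromatin, fell in MBCs as well (log2 differences -2.91 and -2.93). Aurkb, the kinase of the complex, fell less, by 1.57 (adjusted p = 0.0292), and stood at 19.1, 38.4 and 38.6 TPM in MBCs. Incenp, the scaffold, was at 48.9, 42.5, 60.6 and 31.97 TPM in Myc WT LZ and 5.80, 0.43 and 20.4 TPM in MBCs and missed the threshold (-2.95, adjusted p = 0.0513). The group did not separate the genotypes, with log2 differences from -0.58 to -0.02.

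Of the 10 checkpoint and anaphase genes, 8 fell in MBCs. Bub1b, which encodes the checkpoint protein BUBR1, was at 185, 153, 201 and 102 TPM in Myc WT LZ, 165, 118, 95.6 and 88.97 TPM in Myc V394D LZ and 27.1, 0.64 and 17.8 TPM in MBCs. The MBCs lay far under every LZ library, most of all those of mouse 3 (log2 difference -4.03, SE 0.86, adjusted p = 0.0244; exact permutation p = 0.0286, the least possible with 3 against 4 libraries). Ube2c, the ubiquitin-conjugating enzyme of the anaphase-promoting complex, was at 211, 121, 243 and 101 TPM in Myc WT LZ, 209.8, 159, 174 and 128 TPM in Myc V394D LZ and 12.7, 1.34 and 42.6 TPM in MBCs (-3.84, SE 0.85, adjusted p = 0.0272). It was the checkpoint or anaphase gene with the highest level in Myc V394D and the only one of the 10 whose log2 difference between genotypes was above 0 in TPM (0.06), a sign that turned when Myc WT mouse 2 or 4 or Myc V394D mouse 5 was left out. Cdc20, the activator of that complex, was at 59.6, 47.9, 69.5 and 24.7 TPM in Myc WT LZ, 27.8, 23.1, 66.01 and 32.3 TPM in Myc V394D LZ and 2.02, 0 and 11.4 TPM in MBCs (adjusted p = 0.0215 in MBCs). Ttk, the kinase MPS1, was at 41.2, 33.4, 57.2 and 21.8 TPM in Myc WT LZ, 14.2, 30.2, 38.2 and 20.9 TPM in Myc V394D LZ and 0, 0.06 and 17.3 TPM in MBCs, where only mouse 4 had a value above 1 (adjusted p = 0.0447).

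Mad2l1 and Bub3 were the members with the largest negative differences between genotypes. Mad2l1, which encodes the checkpoint protein MAD2, was at 99.1, 115, 109 and 76.2 TPM in Myc WT LZ and 79.3, 29.96, 49.3 and 35.8 TPM in Myc V394D LZ, and Myc V394D mouse 5 alone reached into the Myc WT range. The log2 difference was -1.11 (SE 0.29, adjusted p = 0.128; exact permutation p = 0.0571), or -0.80 relative to all genes. Bub3, a checkpoint protein that holds BUB1 and BUBR1 at kinetochores, was at 109, 114, 135 and 85.6 TPM in Myc WT LZ and 81.2, 61.7, 53.8 and 37.97 TPM in Myc V394D LZ without overlap. Its log2 difference was -0.94 (SE 0.26, adjusted p = 0.13; exact permutation p = 0.0286), and it stayed lower without overlap on the scale of protein-coding genes. In MBCs they were at 32.2, 20.9 and 28.8 TPM for Mad2l1 and 49.4, 29.99 and 40.1 TPM for Bub3, and each fell, by 1.84 and 1.46 (adjusted p = 0.00687 and 0.0161). Bub1, a checkpoint kinase, and Sgo1, which protects centromeric cohesion, fell by 1.86 and 1.90, and Espl1, the protease separase, had a log2 difference of -2.19 without passing the test (adjusted p = 0.0571).

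Pttg1, which encodes securin, the inhibitor of separase, stood apart from the rest. It was at 18.3, 14.7, 20.7 and 17.8 TPM in Myc WT LZ, 35.1, 10.8, 7.83 and 8.22 TPM in Myc V394D LZ and 128, 16.5 and 17.1 TPM in MBCs. MBCs of mouse 1 were far above all other libraries, whereas MBCs of mice 3 and 4 lay within the range of Myc WT LZ. The log2 difference of 0.88 (SE 0.67, adjusted p = 0.434) thus rested on mouse 1 and was -0.07 without it. In Myc V394D, mouse 5 was the highest at 35.1 TPM.

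Among the 8 centromere and kinetochore genes, 5 fell in MBCs, among them all but 1 of the 4 subunits of the NDC80 complex, which grips the microtubule. Nuf2, a subunit of this complex, fell the most of all members: it was at 84.2, 84.2, 90.02 and 43.6 TPM in Myc WT LZ, 69.2, 98.7, 34.1 and 23.3 TPM in Myc V394D LZ and 0.26, 0 and 10.7 TPM in MBCs. Only MBCs of mouse 4 had more than a trace (log2 difference -4.91, SE 0.81, adjusted p = 0.0095). Spc24, of the same complex, was at 37.4, 39.6, 52.2 and 33.1 TPM in Myc WT LZ, 32.98, 55.8, 24.7 and 11.3 TPM in Myc V394D LZ and 0, 7.85 and 2.36 TPM in MBCs (adjusted p = 0.0135), and Spc25 fell to 0.44, 0.45 and 8.46 TPM (adjusted p = 0.031). Ndc80 itself was at 24.3, 2.39 and 21.5 TPM in MBCs, against 42.5, 40.3, 57.4 and 22.1 TPM in Myc WT LZ, so that mouse 1 reached above the lowest LZ library (adjusted p = 0.167). Its reads can be shared with a transcribed pseudogene on the same chromosome, 2700099C18Rik, which has 95.05% identity over 303 bases and a mean of 13.4 TPM.

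Cenpa, the histone H3 variant that marks centromeres, fell the least of the genes of this group that passed the test. It was at 101, 99.5, 97.4 and 71.99 TPM in Myc WT LZ, 106, 37.9, 54.04 and 59.6 TPM in Myc V394D LZ and 36.2, 26.03 and 43.8 TPM in MBCs (-1.38, SE 0.28, adjusted p = 0.0208). Cenpm, a constitutive centromere protein, was at 20.6, 22.04, 29.9 and 13.96 TPM in Myc WT LZ and 34.99, 14.9, 20.6 and 19.2 TPM in Myc V394D LZ, and was listed at 0 in 2 of the 3 MBC libraries, with 0, 0 and 5.06 TPM (adjusted p = 0.0181). Cenpf, a large protein of the outer kinetochore, was at 77.5, 54.3, 83.1 and 35.1 TPM in Myc WT LZ, 119.9, 64.5, 60.4 and 44.5 TPM in Myc V394D LZ and 10.2, 35.2 and 23.1 TPM in MBCs. Its MBC and LZ ranges met, and it missed the threshold (-1.49, adjusted p = 0.0811), as did Cenpe, the motor of the kinetochore (-1.47, adjusted p = 0.0974). Cenpe was at 94.2, 66.7, 93.5 and 48.3 TPM in Myc WT LZ, 100.1, 88.7, 80.4 and 62.6 TPM in Myc V394D LZ and 11.6, 54.2 and 26.6 TPM in MBCs, and its MBCs of mouse 3 reached into the range of LZ B cells. Cenpe and Cenpf were among the 9 members with a higher mean in Myc V394D, by 0.16 and 0.19 (adjusted p = 0.783 and 0.815).

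Spindle motors and microtubule binding proteins were lower in MBCs throughout, 8 of 10 past the test. Kif11, the motor that pushes the spindle poles apart, was at 143, 99.4, 139.7 and 67.8 TPM in Myc WT LZ, 115, 88.7, 60.3 and 56.9 TPM in Myc V394D LZ and 7.15, 12.8 and 23.9 TPM in MBCs. All MBCs lay under the lowest LZ library (log2 difference -2.95, SE 0.44, adjusted p = 0.00652; 7.69-fold lower mean). Ckap2, a microtubule stabilizer, was at 36.9, 29.1, 35.2 and 20.1 TPM in Myc WT LZ, 18.7, 43.96, 40.5 and 18.3 TPM in Myc V394D LZ and 0.07, 0.18 and 10.9 TPM in MBCs (adjusted p = 0.0295). Its relative Ckap2l was at 33.2, 24.8, 39.4 and 19.1 TPM in Myc WT LZ, 40.9, 26.1, 32.7 and 23.2 TPM in Myc V394D LZ and 4.04, 0.3 and 11.1 TPM in MBCs (adjusted p = 0.0453). Both had nearly no signal in MBCs of mouse 3 and did not separate the genotypes. Hmmr, Kif15 and Kif2c fell by 3.45, 3.19 and 2.76, and Nusap1 and Tpx2, which bundle and nucleate spindle microtubules, by 2.18 and 2.08. Tpx2 was at 17.3, 16.3 and 16.9 TPM in MBCs, the narrowest range of the 3 mice in this group. Kif4 had a log2 difference of -2.03 (adjusted p = 0.0856), and Dlgap5, a spindle stabilizer, overlapped between the cell types, with 42.3, 48.8, 69.1 and 37.03 TPM in Myc WT LZ and 36.5, 49.3 and 11.6 TPM in MBCs (-0.77, adjusted p = 0.348).

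Of the 7 genes of the midzone and of cytokinesis, 3 fell in MBCs, namely Ect2, Kif20a and Anln. Ect2, the exchange factor that activates RhoA at the furrow, was at 36.7, 35.9, 43.6 and 22.7 TPM in Myc WT LZ, 31.7, 49.2, 26.99 and 24.6 TPM in Myc V394D LZ and 1.07, 0.07 and 12.9 TPM in MBCs (-3.47, adjusted p = 0.031). Kif20a, a midzone motor, was at 34.4, 20.4, 31.7 and 13.2 TPM in Myc WT LZ, 26.3, 20.1, 11.8 and 15.7 TPM in Myc V394D LZ and 0.07, 7.10 and 4.72 TPM in MBCs, just inside the threshold (adjusted p = 0.0499). Prc1, which bundles the antiparallel microtubules of the midzone, had the smallest difference in this group, at 115, 80.02, 95.5 and 58.1 TPM in Myc WT LZ, 96.9, 72.8, 48.9 and 55.8 TPM in Myc V394D LZ and 67.1, 57.8 and 22.5 TPM in MBCs. MBCs of mouse 1 were within the range of LZ B cells and those of mouse 4 were the lowest (-0.91, adjusted p = 0.198). Racgap1, the partner of KIF23 in centralspindlin, had the largest positive difference between genotypes, with 40.98, 33.8, 51.3 and 26.1 TPM in Myc WT LZ, 66.1, 65.8, 38.7 and 38.4 TPM in Myc V394D LZ and 18.9, 1.66 and 11.7 TPM in MBCs. In TPM mice 5 and 6 were above all Myc WT mice and mice 7 and 8 within them (0.44, SE 0.28, adjusted p = 0.456, exact permutation p = 0.229), and relative to all genes it was higher by 0.75. On the scale of protein-coding genes the log2 difference was 0.83 (SE 0.22, adjusted p = 0.194) and the genotypes did not overlap. Kif23 and Kif20b had log2 differences of -2.55 and -1.25 in MBCs and did not pass the test.

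The genes of the condensed chromosome include Mki67, Top2a and Smc4, the members with the highest levels in LZ B cells, and in MBCs 4 of the 7 fell, with a group median log2 difference of -1.91. Mki67, which encodes the Ki-67 protein that coats mitotic chromosomes, was at 528, 322, 552 and 265 TPM in Myc WT LZ, 609.8, 425, 395 and 369 TPM in Myc V394D LZ and 75.1, 92.03 and 109 TPM in MBCs. MBCs were under every LZ library and close to each other (-2.11, SE 0.31, adjusted p = 0.00582; 4.52-fold lower mean). In MBCs Mki67 nevertheless stood at a mean percentile of 94.7 of protein-coding genes, against 99.1 in Myc WT LZ. Its share of the summed TPM of the members was 10.9, 8.58, 10.6 and 9.77% in Myc WT LZ, 13.0, 11.6, 12.7 and 14.04% in Myc V394D LZ and 7.34, 8.64 and 7.93% in MBCs, so that each Myc V394D mouse lay above each Myc WT mouse. The same held for the shares of 4 other members (Cenpe, Cenpf, Anln and Racgap1). Those of 4 members (Bub1b, Bub3, Mad2l1 and Kif11) were lower in each Myc V394D mouse than in each Myc WT mouse. These shares are parts of the members' own sum, so that higher shares of some go with lower shares of others. Over all genes no such count was made. In TPM the genotypes of Mki67 overlapped (log2 difference 0.15, adjusted p = 0.813 from limma). On the scale of protein-coding genes they overlapped as well (log2 difference 0.54, SE 0.21, adjusted p = 0.321). Top2a, the topoisomerase that untangles sister chromatids, was at 361, 309.6, 443 and 208 TPM in Myc WT LZ, 383, 335, 216 and 194 TPM in Myc V394D LZ and 90.5, 56.1 and 101 TPM in MBCs (-1.98, SE 0.32, adjusted p = 0.00852).

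The subunits of condensin I, the ring that compacts chromosomes, did not move alike in MBCs. Smc4 was at 306, 207, 246 and 161 TPM in Myc WT LZ and 161, 165 and 191 TPM in MBCs, overlapping (-0.38, SE 0.25, adjusted p = 0.371), while its partner Smc2 was at 126, 96.9, 132 and 63.7 TPM and 27.6, 15.7 and 38.2 TPM without overlap (-1.94, SE 0.38, adjusted p = 0.0189). The ratio of Smc4 to Smc2 was 1.86 to 2.52 in all 8 LZ libraries and 5.83, 10.5 and 5.00 in MBCs of mice 1, 3 and 4. Smc4 made up 4.72 to 6.31% of the members' summed TPM in LZ libraries and 13.84 to 15.7% in MBCs. Of the other subunits, Ncaph fell (-1.75, adjusted p = 0.0173). Ncapd2 was at 161, 95.4, 131 and 66.6 TPM in Myc WT LZ, 112, 210.0, 145 and 80.98 TPM in Myc V394D LZ and 23.8, 86.95 and 47.1 TPM in MBCs (-1.20, adjusted p = 0.135), and Ncapg was at 115, 92.9, 100.5 and 65.1 TPM in Myc WT LZ, 151, 52.2, 58.2 and 50.6 TPM in Myc V394D LZ and 7.28, 71.6 and 23.9 TPM in MBCs (-1.91, adjusted p = 0.0926). In MBCs both were lowest in mouse 1, and mouse 3 alone lay within the range of Myc WT LZ.

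**Figure D5:**
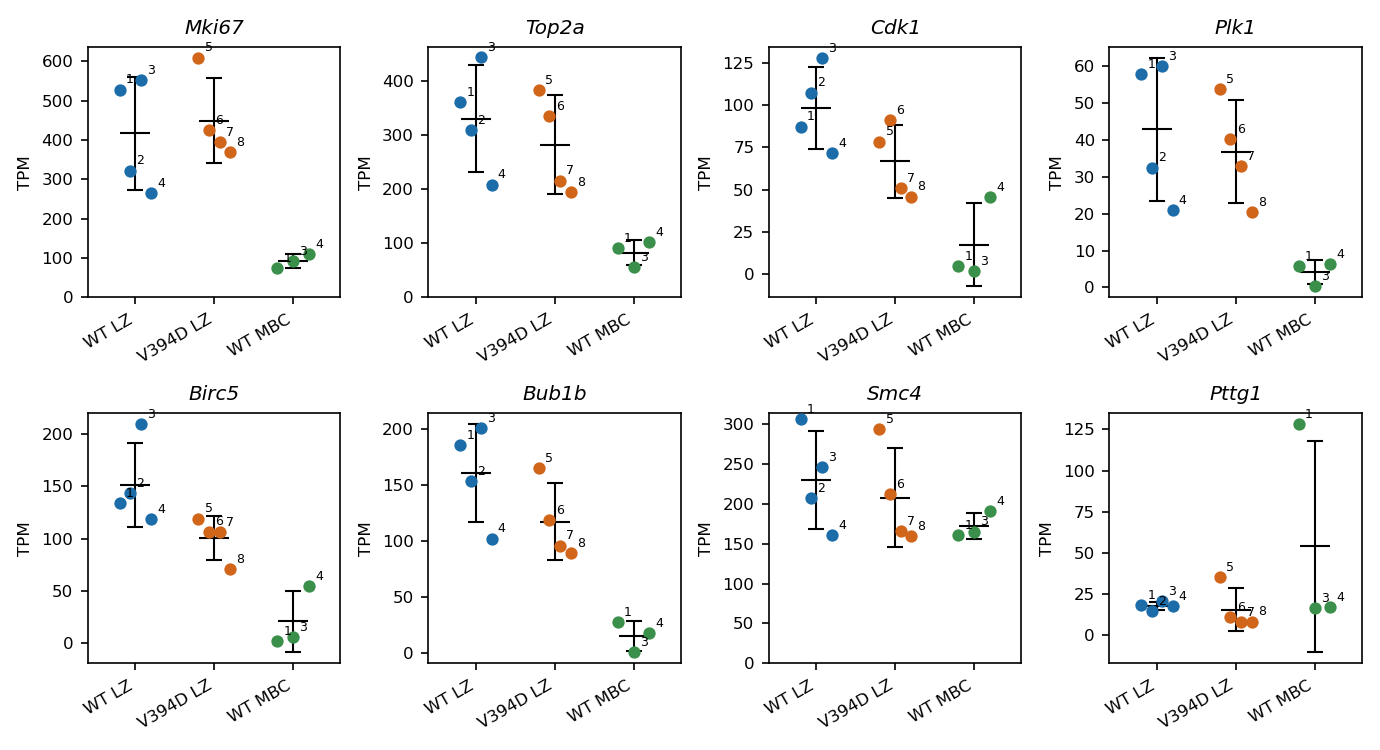
TPM (linear axis) of 8 of the genes in each library, with points numbered by mouse and bars for mean and SD. Mki67, Top2a, Plk1, Birc5 and Bub1b are lower in all 3 MBC libraries than in any LZ library, Smc4 stays between 160.7 and 191 TPM in MBCs, and Pttg1 is at 128 TPM in MBCs of mouse 1 alone.

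Other genes of the same pathway and genes of the step before it were compared in the same fit. Of 100 other mitosis genes (cyclins, cohesin, centrosome and centromere genes and regulators of mitosis) 37 fell in MBCs at an adjusted p under 0.05 (37%, against 5.04% of all genes), 63 did not pass and 6 of the 100 had a higher mean log2 level. Their median log2 difference was -1.97, against -0.14 for all genes. The largest drops were those of Cks2 (-4.98), Stmn1 (-4.94), Cks1b (-4.69), E2f8 (-4.30) and Cep55 (-4.00). Of 21 origin licensing genes, which load the replicative helicase in G1 and fire it in S phase, 11 fell (52.4%, against 5.04% of all genes), with a median of -2.37, led by Gins1 (-4.52), Mcm10 (-4.14), Cdc6 (-3.87), Cdc45 (-3.74) and Gins2 (-3.36).

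The licensing genes were also compared between genotypes. All 21 had a lower mean log2 level in Myc V394D, as had 73.7% of all genes tested, with a median log2 difference of -0.65. An unadjusted p under 0.05 was reached by 8 of them (38.1%, against 15.7% of all genes), while 0 passed the adjusted threshold in limma, and 2 did not overlap between genotypes (9.52%, against 9.16% of all genes). The difference between these genes and the 54 mitotic genes was not tested. Summed TPM of the 54 mitotic genes was 3.47, 2.98, 3.33 and 2.70 times that of the licensing genes in Myc WT LZ, and 4.09, 3.81, 4.29 and 4.14 times in Myc V394D LZ. The groups did not overlap in this ratio, which the scaling of a library cannot alter. In MBCs the ratio was 1.94, 1.87 and 2.74, of which that of mouse 4 alone lay within the range of Myc WT LZ. The ratio sets 2 lists side by side that were chosen with results of these libraries known, and no test was made of it.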

How the data were processed

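Splenic B cells were depleted of CD43+ cells with beads and sorted by flow cytometry, and cDNA made with a Nugen kit was sequenced on an Illumina HiSeq. The authors aligned reads with STAR 2.5.2a and quantified them strand-specifically with RSEM 1.3.0 on GRCm38, and deposited 1 table of TPM with 2 decimals for 48795 Ensembl genes in 11 libraries. The annotation release is not given in the sources used here. Their DESeq2 test (1.18.1 in the submitters' processing notes, another version in the methods) needs counts and was not run. TPM gives no depth, and the number of mice limits the precision.

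Symbols and positions came from GENCODE M21. The members, their role groups and the other lists were chosen with earlier results of these data known, and some marker genes are not reported here. For each comparison, limma 3.58.1 (R 4.3.3, eBayes with trend, two-sided) was fitted to log2(TPM + 1) of all genes that averaged 1 TPM or more over the libraries compared, and p-values were adjusted by Benjamini-Hochberg over all of them. Single genes were also compared by exact permutation of their mean TPM over 70 or 35 groupings, the smallest possible p being 0.0286. The fit was tested on simulated data. TPM in every library was given for the members with the highest mean and the largest differences in each role group, for the 10 largest called differences per comparison, and for Mki67, Cdk1, Plk1 and Top2a. Library values of Cenpe and Bub3, and in part of the groups of Smc4, Smc2, Dlgap5, Incenp, Ndc80, Spc25, Aurkb and Tpx2, were added after they were seen. Transcripts were compared with blastn 2.17.0, and 10 members share at least 200 bases at 95% identity or more with another gene.

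MBC and LZ libraries of mice 1, 3 and 4 come from the same animals. Their deviations from the group means correlated at 0.01, 0.01 and -0.05 across genes, and the fit with the mouse as a block was an alternative, as were a pseudocount of 0.1, other filters and scalings, no trend, all 3 groups in 1 fit and each library left out.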

Additional observations from a re-analysis of the deposited data

Results flagged for a closer look

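In 5 of the 52 sets of 4 LZ libraries looked at (26 members in 2 genotypes), 1 library stood far from the other 3. Chance alone flags about 1 in 20 sets when they are independent. These sets share their libraries, and the members were picked partly by their differences, so that the rates cannot be compared. Aurka was at 9.11 TPM in Myc V394D mouse 7, the lowest of its group. Pttg1 was at 35.1 TPM and Ncapg at 151 TPM in Myc V394D mouse 5, each the highest of its group. Cenpa was at 72.0 TPM and Nuf2 at 43.6 TPM in Myc WT mouse 4, each the lowest of its group, in the library that was lowest for 53 of the 54 genes. The causes were not tested.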

How the results depend on the processing

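The lower direction in MBCs held for 53 or 54 of the 54 genes in every alternative, with a median relative to all genes tested from -2.34 to -1.69, whereas the count past the threshold moved. Against 35 genes, it was 23 with a pseudocount of 0.1 (3.84% of all genes lower, in place of 5.04%), 13 with no filter on low values (1.16% of all genes) and 17 with MBCs of mice 1 and 3 left out (chosen after seeing the data), and 6 to 38 with 1 library left out. With the mouse as a replicate block, the pairing of libraries by animal, it was 9, which drops Myc WT mouse 2 and leaves 3 pairs. Pttg1 turned to -0.0491 with MBC mouse 4 alone and ranged from -0.073 to 1.37 with 1 library left out. Between genotypes the count of lower members was 0 to 2 with 1 library left out and 0 in the other alternatives. After rescaling by the median ratio, quantile normalization and rescaling of protein-coding genes, 21, 15 and 23 of the 54 genes changed sign. Of the 26 genes given by rule in every library, the log2 difference of Ckap2 turned to 0.26, 0.18 and 0.30, of Ect2 to 0.26, 0.16 and 0.30, of Plk1 to 0.16, 0.0849 and 0.21, and of Top2a to 0.11, 0.0769 and 0.15, and that of Prc1 to 0.0353 with protein-coding genes. With 1 library left out, 15 of the 54 changed sign at least once, among those 26 Cenpf (-0.0863 to 0.38), Cenpm (-0.20 to 0.20), Ckap2 (-0.28 to 0.12), Ckap2l (-0.0858 to 0.25), Ect2 (-0.28 to 0.0403), Mki67 (-0.0446 to 0.31), Plk1 (-0.47 to 0.0747) and Ube2c (-0.16 to 0.26). Apart from the scaling and the libraries themselves, the cause was not tested. A lone MBC library was assumed to vary like the other group.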
